A study of Mus musculus with 6 samples.

Results

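Megakaryocyte and platelet genes were followed across 3 groups of sorted bone marrow cells from adult mice, with 9 genes on the list: Pf4, Ppbp, Itga2b, Gp9, Gp1ba, Gp1bb, Gp5, Vwf and Mmrn1. Each gene was read from the probe set that carries its symbol alone and has the highest mean over the 6 arrays. By this rule 8 of the 9 genes were measured, out of 18194 genes in all, and Gp1ba was not analysed here. The groups were E2A-KO LMPP, WT LMPP and WT LSK FLT3-, each with 2 Affymetrix arrays. LMPP were sorted without lineage markers, with SCA1 and KIT and with high surface FLT3, and are known as lymphoid-primed multipotent progenitors. LSK FLT3- cells share the lineage, SCA1 and KIT gate but lack surface FLT3, and this fraction contains the hematopoietic stem cells. The E2A-KO cells came from knockout mice on a C57bl/6 background and the WT cells from C57bl/6 mice. E2A proteins are transcription factors encoded by Tcf3. The labels name neither the knockout allele nor the number of mice used. Nor do they say if both arrays of a group stand for separate animals or sorts, so p-values cover array-to-array spread alone, part or all of which can be technical. Groups were taken from the sample titles, since another free-text label calls every sample wild-type LMPP.

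Megakaryocytes are large bone marrow cells that shed platelets. They load alpha granules with chemokines and adhesive proteins and display receptors that catch a platelet on a damaged vessel wall. In mice, transcripts of several of these genes are also found in stem cells, and Vwf is known to mark stem cells biased towards the platelet lineage. Pf4 and Ppbp encode alpha granule chemokines. Vwf encodes von Willebrand factor, the multimeric ligand that tethers platelets to collagen, and Mmrn1 encodes multimerin 1, an alpha granule protein that binds coagulation factor V. Itga2b encodes the alpha chain of the platelet fibrinogen receptor, also known as CD41. Gp1ba, Gp1bb, Gp9 and Gp5 encode the subunits of the receptor for von Willebrand factor.

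The promoters of Itga2b, Pf4, Mmrn1 and Gp5, which differed by more than 2-fold between WT LMPP and WT LSK FLT3-, are shown here beside that of Ppbp, whose difference was smaller, because transcription factors of the GATA, ETS and RUNX families are known to act at megakaryocyte promoters. RefSeq promoter sequences (GRCm38.p6, 250 bases before to 50 bases after the start) were found for 8 of the 9 genes, all but Vwf. On both strands, GATAA was searched for as the core bound by GATA factors. AGGAAG stood for the ETS family and TGTGGT for the RUNX family. The motifs GATAA and AGGAAG can share a base, but no match overlapped another in the sequences shown, which run 5′ to 3′ along the gene's strand. Capitals mark every match to any of the 3 motifs.
Itga2b, chr11:102469834-102470133, minus strand: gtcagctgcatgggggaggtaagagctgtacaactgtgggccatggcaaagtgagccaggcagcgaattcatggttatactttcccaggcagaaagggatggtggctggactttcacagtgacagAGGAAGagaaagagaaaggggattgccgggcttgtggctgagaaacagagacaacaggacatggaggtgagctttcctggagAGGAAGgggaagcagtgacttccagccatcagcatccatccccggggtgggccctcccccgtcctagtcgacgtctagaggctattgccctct
Pf4, chr5:90772185-90772484, plus strand: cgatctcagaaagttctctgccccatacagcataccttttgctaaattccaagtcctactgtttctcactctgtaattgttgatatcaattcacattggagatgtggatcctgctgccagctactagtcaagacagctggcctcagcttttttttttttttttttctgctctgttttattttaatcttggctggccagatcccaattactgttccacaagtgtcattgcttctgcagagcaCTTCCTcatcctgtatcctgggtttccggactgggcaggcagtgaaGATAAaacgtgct
Mmrn1, chr6:60944067-60944366, plus strand: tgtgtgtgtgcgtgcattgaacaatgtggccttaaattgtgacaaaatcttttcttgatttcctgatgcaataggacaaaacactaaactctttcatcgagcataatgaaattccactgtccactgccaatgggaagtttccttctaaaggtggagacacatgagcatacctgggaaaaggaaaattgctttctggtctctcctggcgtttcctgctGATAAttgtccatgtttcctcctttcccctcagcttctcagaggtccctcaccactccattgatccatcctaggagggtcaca
Gp5, chr16:30310732-30311031, minus strand: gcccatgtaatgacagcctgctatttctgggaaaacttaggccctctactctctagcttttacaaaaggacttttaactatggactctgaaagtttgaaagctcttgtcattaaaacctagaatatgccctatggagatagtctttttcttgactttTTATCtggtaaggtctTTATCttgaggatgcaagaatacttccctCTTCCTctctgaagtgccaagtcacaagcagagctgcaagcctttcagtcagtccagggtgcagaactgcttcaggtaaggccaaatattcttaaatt
Ppbp, chr5:90768268-90768567, plus strand: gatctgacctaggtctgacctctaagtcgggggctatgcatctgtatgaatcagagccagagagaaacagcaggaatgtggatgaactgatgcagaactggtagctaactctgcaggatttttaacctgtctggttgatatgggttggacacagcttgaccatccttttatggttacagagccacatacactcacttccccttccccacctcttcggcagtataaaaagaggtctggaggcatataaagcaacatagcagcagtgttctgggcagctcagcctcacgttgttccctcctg
GATAA was found in 5 of the 8 promoters, against 25.4% of 32851 promoters of this length. AGGAAG was found in 6 of the 8, against 35.4% of all promoters, and TGTGGT in 1 of the 8, against 16.8%. Both GATAA and AGGAAG were present in 4 of the 8, Pf4, Gp9, Gp1ba and Gp5, against 9.2% of all promoters. Itga2b held 2 AGGAAG matches and no GATAA, Mmrn1 held 1 GATAA, and Ppbp, the coding gene next to Pf4 on chromosome 5, held none of the 3 motifs. Among the promoters not shown, that of Gp9 held all 3 motifs, although its change between the wild-type fractions (-0.64) was smaller than that of Ppbp (-0.83). Gp1bb, which did not pass, held 1 AGGAAG. These matches describe letters in a short window and were not tested against expression.

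The labels were checked against the array values. Flt3 messenger RNA was at 10.70 and 10.76 (log2) in E2A-KO LMPP and 10.80 and 10.80 in WT LMPP, against 8.87 and 8.76 in WT LSK FLT3-, which follows the sort. Kit, part of the gate of both fractions, was at 8.85 and 8.47 in E2A-KO LMPP and 9.05 and 8.91 in WT LMPP, against 10.05 and 10.38 in WT LSK FLT3-, and was lower in WT LMPP (-1.24, limma adjusted p = 0.00124). The stem cell surface genes Procr (-2.35) and Slamf1 (-1.61) were lower in WT LMPP too, as are the platelet genes described next, and their part in those results was not tested. Tcf3, the targeted gene, had 3 probe sets. The brightest was at 6.80 and 6.53 in E2A-KO LMPP, 6.93 and 6.86 in WT LMPP and 7.27 and 7.41 in WT LSK FLT3-. The second Tcf3 probe set was at 4.28 and 3.94 in E2A-KO LMPP, 4.38 and 4.03 in WT LMPP and 5.03 and 5.12 in WT LSK FLT3-, and the third at 3.18 and 3.13, 3.69 and 3.28, and 3.78 and 3.73 in the same group order. None of the 3 passed between E2A-KO and WT LMPP (limma, adjusted p 0.425 to 0.869), and the sources used here do not place them relative to the deleted sequence, so they do not check the genotype. Replicate arrays correlated across genes at Pearson's r = 0.992 in E2A-KO LMPP, 0.991 in WT LMPP and 0.997 in WT LSK FLT3-; genes are not independent replicates. The median gene lay at 4.84 to 4.87 (log2) in LMPP of either genotype and at 4.95 and 4.97 in WT LSK FLT3-. The upper quartile of probe sets was 5.78 to 5.82 in LMPP of either genotype and 6.13 and 6.15 in WT LSK FLT3-. For Actb the 3′ probe set exceeded the 5′ one, a measure of how far labelled RNA reaches, by 3.77 to 3.95 in LMPP of either genotype and by 3.55 and 3.45 in WT LSK FLT3-. For Gapdh the same difference was 3.09 to 3.35 in LMPP of either genotype and 3.44 and 3.25 in WT LSK FLT3-, so the fractions overlapped. The medians, the upper quartiles and the Actb difference part the fractions, and their share in the differences between LMPP and LSK FLT3- was not tested.

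WT LMPP were compared with WT LSK FLT3-, separately sorted populations that differ in surface FLT3. Of the 8 measured genes 7 were lower in WT LMPP, 0 were higher and Gp1bb did not pass. Mmrn1, Vwf, Itga2b and Pf4 fell by 2.47 to 3.12 on the log2 scale, Gp5 by 1.18, and Ppbp and Gp9 by 0.83 and 0.64. Over all genes tested, 23.7% were called lower and 10.4% higher in this comparison (limma's moderated test on all 6 arrays, Benjamini-Hochberg adjustment over all genes, threshold 0.05). Higher genes made up 30.5% of all calls, 47.4% after quantile normalization and 17.8% after median centring, and 7 platelet genes were lower under each. Median centring used the median of all probe sets, which lay higher in WT LMPP (4.01) than in WT LSK FLT3- (3.91 and 3.90), unlike the median gene. It could thus only enlarge a fall in WT LMPP. At least a 2-fold fall was called for 5 of the 8 genes, against 5.37% of all genes. The median change of the 8 genes was -1.82, beside -0.01 for all genes. In sorted populations, fewer cells that carry a transcript and less of it per cell cannot be told apart.

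**Figure D1:**
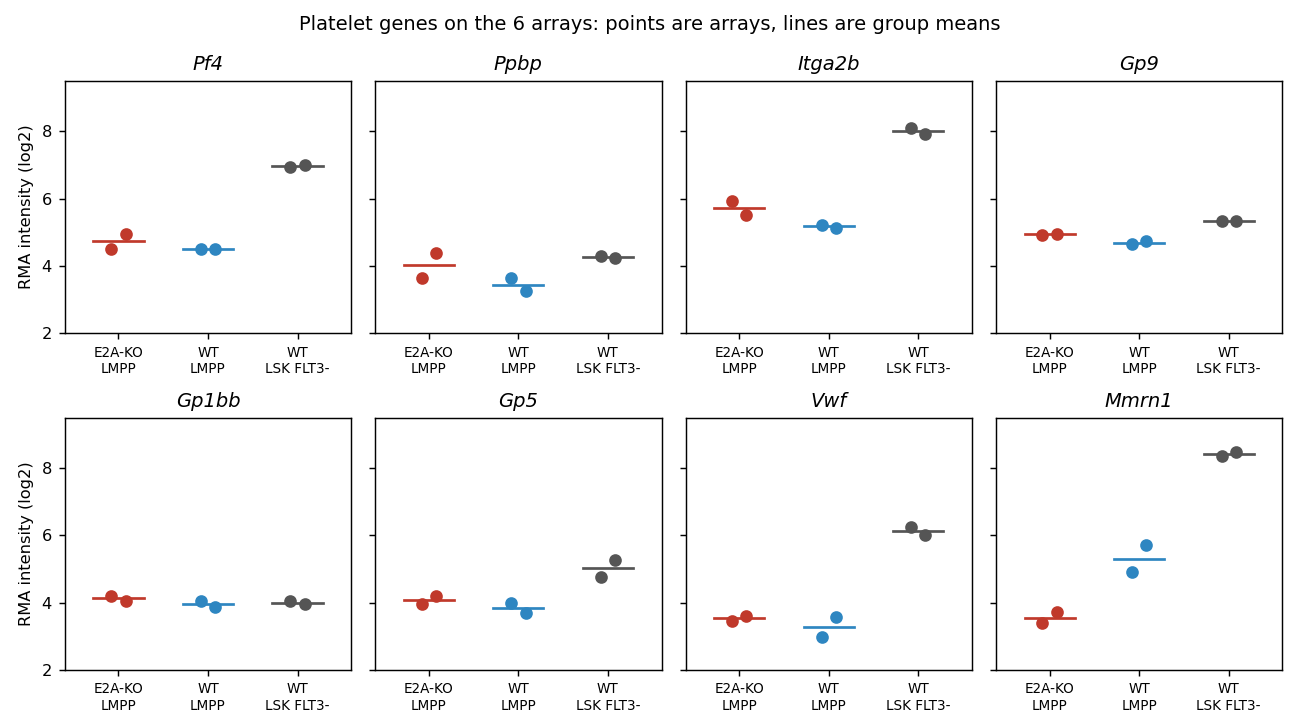
Log2 RMA intensity of the 8 measured platelet genes, 1 panel per gene, with E2A-KO LMPP, WT LMPP and WT LSK FLT3- from left to right; points are arrays and lines are group means (n = 2). Pf4, Itga2b, Vwf and Mmrn1 sit highest on the WT LSK FLT3- arrays with a wide gap, Gp1bb is level, and Mmrn1 alone is lower in E2A-KO LMPP than in WT LMPP beyond the spread of the arrays.

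Among the granule proteins, Mmrn1 and Vwf had large falls with overlapping intervals. On its brighter probe set Mmrn1 was at 4.91 and 5.71 (log2) in WT LMPP, against 8.37 and 8.49 in WT LSK FLT3-. The arrays of the fractions lay far apart, with a change of -3.12 (SE 0.24, 8.71-fold, limma adjusted p = 7.26e-05). Vwf was at 2.98 and 3.58 in WT LMPP, against 6.26 and 6.00 in WT LSK FLT3-. Its change was -2.86 (SE 0.20, adjusted p = 4.52e-05 by limma). Vwf exceeded only 9.7% and 27% of genes on the WT LMPP arrays, a dim range in which the size of a fall is inexact.

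The chemokine genes, which are neighbours, differed in the size of their measured change. Pf4 was at 4.49 and 4.51 in WT LMPP, against 6.94 and 6.99 in WT LSK FLT3-, a change of -2.47 (SE 0.16, limma adjusted p = 3.17e-05). Ppbp was at 3.63 and 3.24 in WT LMPP, against 4.30 and 4.23 in WT LSK FLT3-. Its groups did not overlap, and the change was -0.83 (SE 0.24, limma adjusted p = 0.0269). Ppbp stayed below the median gene on all 6 arrays, and its call was lost without WT LMPP replicate 2 (adjusted p = 0.119), WT LSK FLT3- replicate 1 (0.142) or WT LSK FLT3- replicate 2 (0.115). The 95% intervals of the changes, -2.83 to -2.10 for Pf4 and -1.37 to -0.29 for Ppbp, did not overlap. The difference between genes was not itself tested. Ppbp exceeded only 28% and 17.6% of genes on the WT LMPP arrays, a dim range in which the size of a fall is inexact.

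Itga2b, the integrin chain, was at 5.23 and 5.14 in WT LMPP, against 8.09 and 7.93 in WT LSK FLT3-. The change was -2.82 (SE 0.16, 7.07-fold, limma adjusted p = 1.48e-05). In WT LSK FLT3- it was brighter than 82.9% and 81.2% of genes on the arrays, while in WT LMPP it was near the middle, above 54.6% and 53.5% of genes.

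The subunits of the von Willebrand factor receptor showed smaller differences. They were dim even in WT LSK FLT3-, where Gp5 exceeded 48.2% and 52.8% of genes, Gp9 53.4% on both arrays and Gp1bb 39.7% and 38.2%. In this range the size of a fall is inexact. Gp5 was at 3.99 and 3.68 in WT LMPP, against 4.75 and 5.28 in WT LSK FLT3-, a change of -1.18 (SE 0.20, limma adjusted p = 0.0029). Gp9 was at 4.65 and 4.73 in WT LMPP, against 5.32 and 5.34 in WT LSK FLT3-. These narrow pairs gave a change of -0.64 (SE 0.12, limma adjusted p = 0.00529), which was lost without WT LSK FLT3- replicate 1 (0.0527) or replicate 2 (0.0552). Gp1bb, on its brighter probe set, was at 4.05 and 3.86 in WT LMPP, against 4.04 and 3.95 in WT LSK FLT3-. The groups overlapped, and the change of -0.04 had a 95% interval of -0.35 to 0.27 (limma adjusted p = 0.848).

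**Figure D2:**
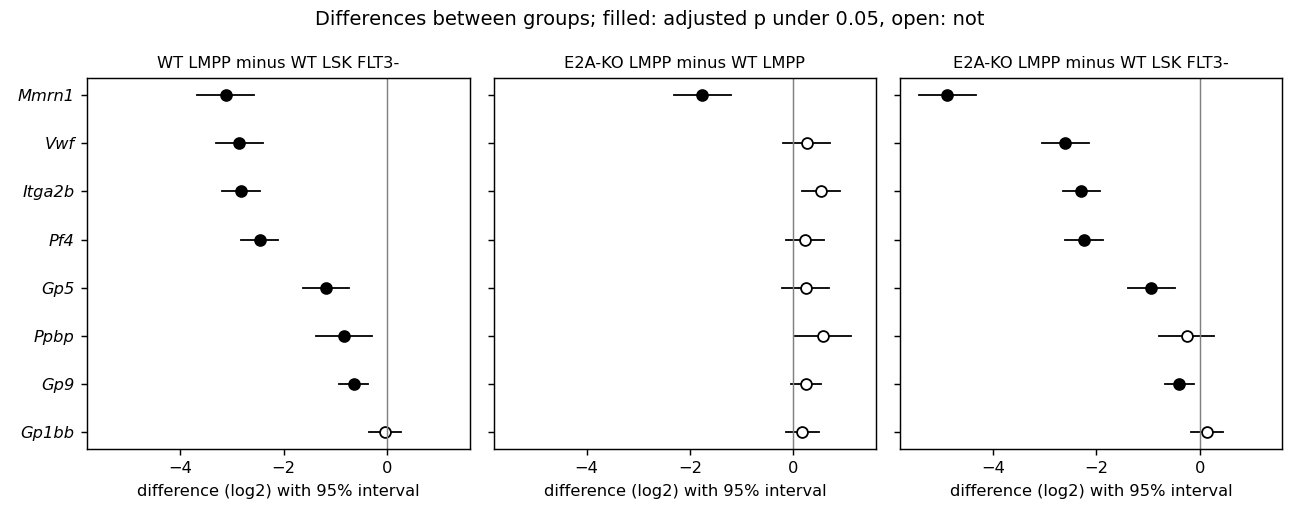
Difference in log2 RMA intensity of each platelet gene with its 95% interval from limma, for WT LMPP minus WT LSK FLT3-, E2A-KO LMPP minus WT LMPP and E2A-KO LMPP minus WT LSK FLT3-; filled points passed at an adjusted p under 0.05. Filled points lie left of 0 for 7 genes in the first panel, for Mmrn1 in the second and for 6 genes in the third.

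Gp1bb and Mmrn1 had a further probe set each, and these did not match the brighter ones. The dimmer Gp1bb probe set was at 2.78 and 2.94 in E2A-KO LMPP and 2.83 and 3.12 in WT LMPP, against 3.63 and 3.62 in WT LSK FLT3-. It fell in WT LMPP by 0.65 (SE 0.15, limma adjusted p = 0.0153 over all probe sets), unlike the brighter probe set, whose values were level. The mean of both Gp1bb probe sets was lower in WT LMPP too (-0.34, limma adjusted p = 0.0361), which brings the count of lower genes to 8 of 8. The dimmer Mmrn1 probe set stayed between 2.27 and 2.47 on all 6 arrays, near the lowest values measured, and showed no difference (limma adjusted p = 0.939 for WT LMPP against WT LSK FLT3-). Averaging it with the brighter one reduced the Mmrn1 change to -1.55 (limma adjusted p = 0.000387), a smaller fall than those of Vwf and Pf4. The other 6 genes had 1 probe set each.

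**Figure D3:**
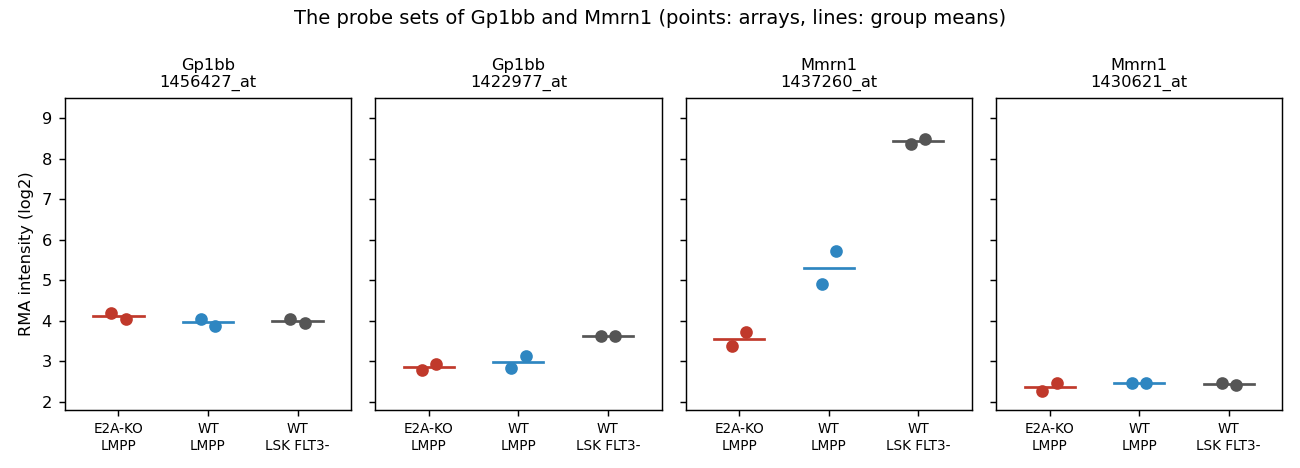
Log2 RMA intensity of both probe sets of Gp1bb and both of Mmrn1, with E2A-KO LMPP, WT LMPP and WT LSK FLT3- from left to right; points are arrays and lines are group means (n = 2). The brighter Gp1bb probe set is level while the dimmer one is highest in WT LSK FLT3-, and the dimmer Mmrn1 probe set stays between 2.27 and 2.47 in every group.

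The stated goal of the study was the difference between E2A-KO and WT LMPP, and here Mmrn1 was lower and the other 7 platelet genes did not pass. Over all genes, 0.995% were called lower and 0.379% higher (limma, adjusted p under 0.05). Mmrn1 was at 3.38 and 3.72 (log2) in E2A-KO LMPP, against 4.91 and 5.71 in WT LMPP. No array overlapped, and the change was -1.76 (SE 0.24, 3.39-fold, limma adjusted p = 0.0108). Leaving out E2A-KO LMPP replicate 1 ended the call, at a change of -1.59 (adjusted p = 0.0912), and the mean of both probe sets gave -0.93 (0.0359). Mmrn1 exceeded only 20.5% and 30.3% of genes on the E2A-KO LMPP arrays, so the size of the fall is inexact. At least a 2-fold fall was called for 1 of the 8 genes, against 0.517% of all genes.

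On the probe set used, each of the other 7 genes had a higher mean in E2A-KO LMPP than in WT LMPP, by 0.175 to 0.573. The dimmer Gp1bb probe set went the other way (-0.116), and the median change of all genes was -0.016. Of the 7 genes 2 had an unadjusted p under 0.05 by limma, as had 14.6% of all genes. Itga2b was at 5.92 and 5.52 in E2A-KO LMPP, against 5.23 and 5.14 in WT LMPP. The groups did not overlap, with a difference of 0.53 (95% interval 0.17 to 0.90, limma adjusted p = 0.169). Ppbp was at 3.63 and 4.39 in E2A-KO LMPP, against 3.63 and 3.24 in WT LMPP, a difference of 0.57 (95% interval 0.03 to 1.11, limma adjusted p = 0.311). Its E2A-KO LMPP arrays differed widely, and replicate 2 alone lay above both WT LMPP arrays. Gp9 was at 4.92 and 4.95 in E2A-KO LMPP, against 4.65 and 4.73 in WT LMPP (0.24, limma adjusted p = 0.407). For Pf4, at 4.51 and 4.94 in E2A-KO LMPP against 4.49 and 4.51 in WT LMPP, the 95% interval was -0.14 to 0.59. For Vwf, at 3.45 and 3.61 in E2A-KO LMPP against 2.98 and 3.58 in WT LMPP, it was -0.20 to 0.71, and for Gp5, at 3.95 and 4.20 against 3.99 and 3.68 in the same order, it was -0.21 to 0.69. Gp1bb was at 4.20 and 4.05 in E2A-KO LMPP, against 4.05 and 3.86 in WT LMPP, with an interval of -0.14 to 0.49. The intervals of Itga2b and Ppbp leave out 0, but neither gene passed after adjustment over all genes.

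Against WT LSK FLT3-, 6 of the 8 genes were lower in E2A-KO LMPP and 0 were higher, where 26.5% of all genes were called lower and 11% higher. This comparison shares its WT LSK FLT3- arrays with the first and its E2A-KO LMPP arrays with the second. Its groups differ in both genotype and sorted fraction, which cannot be told apart within it. At least a 2-fold fall was called for 4 of the 8 genes, against 6.49% of all genes. On its brighter probe set Mmrn1 differed by -4.88 (SE 0.24, limma adjusted p = 1.02e-05), and the mean of both probe sets gave -2.48 (5.11e-05). The E2A-KO LMPP values are dim, so this size is inexact. Vwf (-2.60), Itga2b (-2.29), Pf4 (-2.24) and Gp5 (-0.94) were also lower. Gp5 lost its call without WT LSK FLT3- replicate 2 (limma adjusted p = 0.071). Gp9 passed narrowly at -0.40 (SE 0.12, limma adjusted p = 0.0341) and lost its call under 7 of 14 alternative settings, among them the removal of either E2A-KO LMPP array or either WT LSK FLT3- array. Ppbp did not pass at -0.26 (limma adjusted p = 0.416) but did without E2A-KO LMPP replicate 2, at -0.63 (0.0455). For Gp1bb the brighter probe set differed by 0.14 (limma adjusted p = 0.455) and the dimmer one by -0.76 (0.00631 over all probe sets).

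The order of the group means was thus highest in WT LSK FLT3- for 7 of the 8 genes. Mmrn1 was lower in WT LMPP and lowest in E2A-KO LMPP on its brighter probe set, each neighbour apart beyond the spread of the arrays. For Pf4, Itga2b, Vwf, Gp5 and Gp9 the LMPP genotypes followed with E2A-KO LMPP above WT LMPP in the mean and no call between them. For Ppbp the order had E2A-KO LMPP between the others, without a call against either. Gp1bb had group means at most 0.175 apart. Across the 6 arrays Pearson's r between pairs of Pf4, Itga2b, Vwf, Gp5 and Gp9 was 0.887 to 0.987, which mostly reflects the gap between LSK FLT3- and LMPP arrays. Mmrn1 correlated with these 5 genes at 0.733 to 0.902, and Gp1bb with the other 7 genes at -0.521 to 0.175. Of 1742 other genes whose group means span at least 1 (log2), those whose levels followed the mean profile of the 8 genes most closely over the 6 arrays were Cdc37, Mgst1, Rpia, Plscr1, Hsd3b7 and Alg13 (r = 0.997 to 0.999 for 6 arrays). For Cdc37, the closest, the group means were 8.13 in E2A-KO LMPP, 7.86 in WT LMPP and 8.9 in WT LSK FLT3-. These 6 genes were picked for their high r among 1742, so the r values cannot show a link to platelet genes.

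Wider lists of megakaryocyte and platelet genes showed how far the fall in WT LMPP extended. Transcription factors listed for the lineage were lower in 10 of 14 measured cases and higher in 0, with a median change of -1.10 beside -0.01 for all genes. The list is not confined to the lineage, since factors such as Gata2 also act in stem cells, and the part of that was not tested. Of 10 erythroid markers, described below, 5 were lower too and 2 higher, and their part in this list was not tested either. Gata2, a factor of stem and early megakaryocyte cells, was at 6.49 and 6.57 in WT LMPP, against 9.24 and 9.47 in WT LSK FLT3- (-2.83, limma adjusted p = 7.6e-06). Zfpm1, which encodes a protein partner of GATA factors, was lower (-2.28, or -1.43 as the mean of all its probe sets). Gata1, another GATA factor on the list, was lower too (-2.06). The remaining 7 lower factors were Gfi1b, Fli1, Tal1, Nfe2, Meis1, Runx1 and Etv6, named to complete the count after their values were seen. In E2A-KO against WT LMPP 0 of the 14 passed by limma, with 4 at an unadjusted p under 0.05, beside 14.6% of all genes. The largest differences there were in Gfi1b (-0.58, limma adjusted p = 0.169) and Lmo2 (0.49, 0.195), and Lmo2 passed with a variance trend (0.00993).

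Of 21 further surface receptors, 8 were lower in WT LMPP, 3 higher and 10 did not pass, with a median of -0.17, where 23.7% of all genes were lower and 10.4% higher. Itgb3, the partner chain of Itga2b in the fibrinogen receptor, was at 3.50 and 4.45 in WT LMPP, against 6.36 and 6.10 in WT LSK FLT3- (-2.25, limma adjusted p = 0.000591), and the mean of all its probe sets gave -0.86 (0.00489). Selp, the alpha granule membrane adhesion molecule P-selectin, fell by 2.54 and Esam, a junction molecule of platelets, endothelium and stem cells, by 2.48. The 3 higher receptors were Tbxa2r (1.11), P2ry12 (0.60) and Cd36 (0.60), named after their values were seen. P2ry12 and Cd36 were below the median gene on all arrays. In the knockout comparison Itga6, the laminin receptor alpha chain, was at 7.55 and 7.53 in E2A-KO LMPP, against 6.80 and 6.73 in WT LMPP. The difference of 0.775 (SE 0.124) passed (limma adjusted p = 0.0211), and leaving out any 1 of the 6 arrays ended the call (0.0604 to 0.103). The other 20 receptors did not pass there.

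Of 12 alpha granule cargo genes, 2 were lower and 2 higher in WT LMPP. Angpt1, the TEK ligand angiopoietin 1, fell by 1.88 and coagulation factor V, F5, by 1.00, whereas Thbs1 rose by 0.74 and Sparc was at 5.72 and 5.72 in WT LMPP, against 4.52 and 4.52 in WT LSK FLT3-. The mean of all Sparc probe sets gave a rise of 0.375 (limma adjusted p = 0.0332). F5 and Thbs1 were below the median gene on all arrays. In E2A-KO LMPP F13a1, the factor XIII A chain, which monocytes also make, was at 4.31 and 3.88, against 5.84 and 6.03 in WT LMPP, a change of -1.84 (SE 0.17, limma adjusted p = 0.00134). The other 11 cargo genes did not pass there. The neutrophil list moved with this fall: 6 of its 8 genes were lower in E2A-KO LMPP, and its summed linear level was 2020 and 1720 in E2A-KO LMPP, against 4270 and 4120 in WT LMPP. Its part in the F13a1 result was not tested.

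Granule biogenesis and release genes were lower in 5 of 18 cases and higher in 0, led by the vesicular monoamine transporter Slc18a2 (-5.01), the fusion protein Snap23 (-1.73) and Rab38 (-1.40). Vamp8 and Stxbp2 were the other lower genes. Of 8 mast cell and basophil markers, described below, 3 were lower too and 2 higher, and their part in the Slc18a2 fall was not tested. In the knockout comparison 0 of the 18 passed by limma, with 4 at an unadjusted p under 0.05 (14.6% of all genes). Cytoskeleton genes were lower in 7 of 16 cases and higher in 1. Mylk, the myosin light chain kinase, fell by 1.69 on its brightest probe set and by 0.48 in the mean of all its probe sets. Actn1 fell by 1.00 on its brightest probe set (-0.66 after quantile normalization), though the mean of all gave 0.035. The tropomyosin gene Tpm4 rose by 1.69. In E2A-KO LMPP Zyx, the focal adhesion protein zyxin, was lower by 0.77 (limma adjusted p = 0.023), a call lost without any 1 of the 6 arrays (0.0657 to 0.117). Signalling genes were lower in 9 of 17 cases and higher in 1, led by Gng11 (-2.10), Rgs18 (-1.30) and Fyb (-1.22, or -0.81 as the mean of its probe sets). The adaptor gene Sh2b3 was the higher one (0.60), and its call was lost under some of the alternative settings. There were 0 calls by limma in the knockout comparison and 3 at an unadjusted p under 0.05, again beside 14.6% of all genes. Beside 23.7% of all genes, lower calls thus stood at 10 of 14 in the transcription factor list and 9 of 17 in signalling. They stood at 7 of 16 in the cytoskeleton list, 8 of 21 in the receptors, 5 of 18 in granule biogenesis and 2 of 12 in cargo genes.

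**Figure D4:**
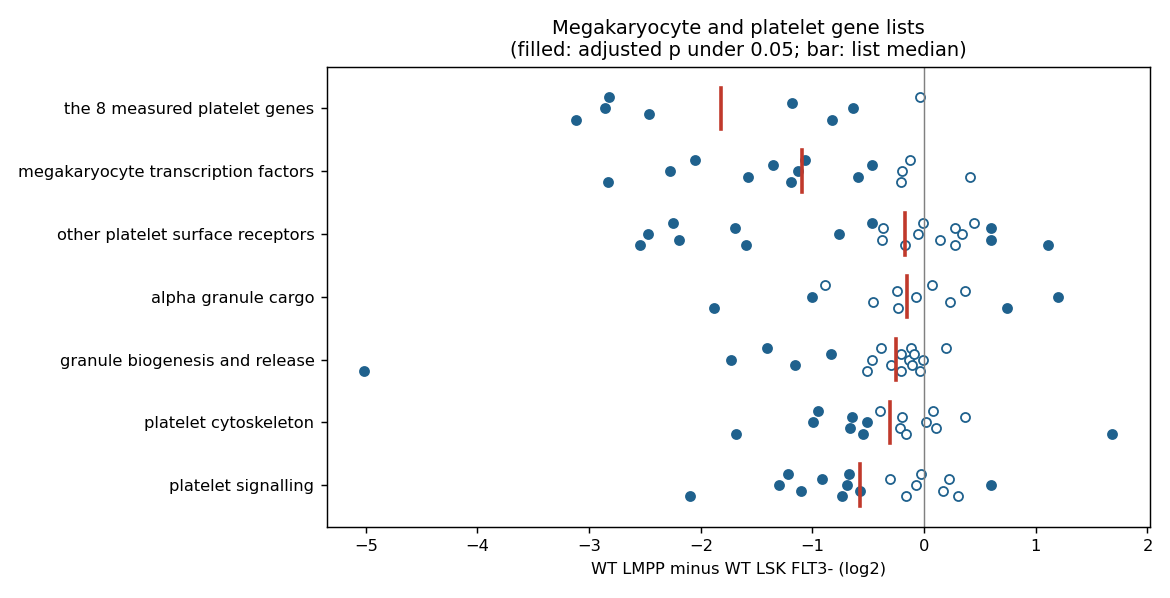
Change in WT LMPP relative to WT LSK FLT3- (log2) for each gene of 7 lists, 1 row per list; filled points passed at an adjusted p under 0.05 and the red bar is the list median. The 8 platelet genes and the transcription factors have medians of -1.82 and -1.10, and the other 5 lists have medians between -0.57 and -0.16.

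Some platelet genes of the further lists were dim in every group. Tubb1, the platelet beta tubulin, was at 3.86 and 3.61 in E2A-KO LMPP, 3.70 and 3.52 in WT LMPP and 4.34 and 3.98 in WT LSK FLT3-, below the median gene on all arrays, and was lower in WT LMPP than in WT LSK FLT3- (-0.55, limma adjusted p = 0.0324). Gp6, the collagen receptor, was at 3.16 to 3.57 over the 6 arrays and Clec1b, the podoplanin receptor, at 2.78 to 3.16. Ppbp and Gp1bb were likewise below the median gene on all arrays, whereas Itga2b was above it on all arrays. Treml1, a platelet surface receptor gene, was at 5.12 to 5.36, above the median gene on all arrays, with no call in any comparison. Tubb1, Gp6, Clec1b and Treml1 are named here after their values were seen.

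Markers of other cell types were compared in the same way, with the same 23.7% of all genes lower and 10.4% higher in WT LMPP. Vwf and Mmrn1 are also made by endothelium, and of 10 endothelial markers 0 were lower in WT LMPP than in WT LSK FLT3- and 1 higher (Plvap, 0.46, limma adjusted p = 0.0444). The Plvap call was lost without either WT LMPP array or either WT LSK FLT3- array. Cdh5, Cldn5, Sox18, Stab2, Lyve1, Flt1 and Ptprb were below the median gene on all 6 arrays, and the summed linear level was 306 and 314 in E2A-KO LMPP, 536 and 416 in WT LMPP and 368 and 371 in WT LSK FLT3-. In the knockout comparison Egfl7, which stem cells also express, fell by 1.07 (limma adjusted p = 0.0194), in the same direction as Mmrn1, and its part in that result was not tested. The Egfl7 call was lost without any of 5 arrays, all but WT LMPP replicate 2 (0.0606 to 0.12). Erythroid markers were lower in WT LMPP in 5 of 10 cases and higher in 2 (Alas2 and Hba-a1), with a summed level of 927 and 956 in E2A-KO LMPP, 1160 and 1150 in WT LMPP and 2520 and 3520 in WT LSK FLT3-. Car1 was lower (-4.08), as was Klf1 (-2.04), the red cell transcription factor. Mast cell and basophil markers were lower in 3 of 8 cases, led by Cpa3 (-3.74) and Mcpt8 (-2.12), and higher in 2 (Hdc and Tpsab1), with a summed level of 145 and 143 in E2A-KO LMPP, 130 and 122 in WT LMPP and 331 and 332 in WT LSK FLT3-. Of 7 plasma cell markers 2 were lower, Igha (-5.79) and Jchain (-4.77), and 2 higher, Sdc1 and Irf4, with sums of 330 and 387, 228 and 242, and 1340 and 1490 in the same group order. Of 5 stroma markers 1 was lower (Col1a2, -1.78, or -0.695 as the mean of its probe sets) and 2 higher (Lepr, whose call was lost in the mean of its probe sets, and Kitl), with sums of 71.4 and 69, 76 and 64.5, and 105 and 94.8. Of the genes named as higher in WT LMPP, Alas2, Hba-a1, Tpsab1, Irf4, Lepr and Kitl were below the median gene on all 6 arrays. Of 8 neutrophil genes 2 were lower in WT LMPP, Elane and Mpo, and 5 higher. These erythroid, mast cell and plasma cell sums move with the platelet genes across the fractions, and their part in the platelet gene differences was not tested.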

How the data were processed

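RNA of sorted cells was amplified in more than 1 round and hybridized to 1 Affymetrix 3′ array per sample, per the labels' protocols. The authors deposited 1 linear intensity per probe set and array; the submitters' processing notes name RMA, a method that corrects background, normalizes between arrays and summarises probes, without a version. Values ran from 4.23 to 25594, and log2 was taken here. Of 45101 probe sets, 34958 carry a single symbol in the platform annotation, and they stand for 18194 genes, each by its brightest probe set. A probe set that pairs Gp1bb with another gene was left out.

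limma 3.58.1 in R 4.3.3 was fitted with 1 mean per group on all 6 arrays, leaving 3 residual degrees of freedom beside 5.8 prior degrees of freedom. Tests were two-sided, and Benjamini-Hochberg adjustment ran over all genes, with a threshold of 0.05. An exact permutation test of 2 against 2 arrays cannot go below p = 0.333. The test was checked on simulated data. SEs and 95% intervals come from the model. For arrays the number of samples limits the precision, and no detection calls were used.

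By rule, the named genes were the listed platelet genes and up to 3 genes of each further list with the largest called change between the wild-type fractions. The rule also took up to 2 in the knockout comparison or of another cell type, and the 6 genes most like the mean profile. Further genes, among them Thbs1, Vamp8, Slamf1 and Kitl, were named outside this rule with their values seen. Some genes that the rule picked, among them Ngp, Ltf and Camp, are not described. The genes and lists were chosen with earlier results of these data known. Alternatives were a replicate block, only the 4 arrays compared, dim genes left out, the mean of all probe sets, all probe sets as the unit, quantile normalization, median centring, a robust variance trend, a 2-fold minimum and leaving out each array. Slide and background alternatives were not run on these summarised values. Figures were drawn with matplotlib 3.10.9.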

Additional observations from a re-analysis of the deposited data

How the results depend on the processing

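Between the wild-type fractions 7 platelet genes were lower in the main setting, and the alternatives gave 5 to 8, with 5 to 7 when an array was left out. Between E2A-KO and WT LMPP the count was 1, and 0 to 1 when an array was left out, the 0 arising without E2A-KO LMPP replicate 1. Between E2A-KO LMPP and WT LSK FLT3- it was 6, with 4 to 7 over the alternatives and 4 to 6 when an array was left out. No platelet gene was called higher in any of these. Between the wild-type fractions the lower transcription factors numbered 8 to 10 over the settings, and the lower cytoskeleton genes 3 to 8.

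Changes of sign occurred only in genes not called in the main setting, and in Actn1. For Gp1bb the change in WT LMPP against WT LSK FLT3- was -0.038 in the main setting, -0.134 to 0.057 without 1 WT LMPP array and 0.008 without WT LSK FLT3- replicate 1. In E2A-KO LMPP against WT LSK FLT3- Gp1bb gave -0.31 with the mean of its probe sets (limma adjusted p = 0.0463) and 0 with median centring, and Ppbp gave -0.634 to 0.122 without 1 E2A-KO LMPP array. Vwf in E2A-KO against WT LMPP gave -0.045 to 0.555 without 1 WT LMPP array. Actn1 in WT LMPP against WT LSK FLT3- gave 0.035 with the mean of all probe sets. Apart from the probe set averages, the cause was not tested.

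The number of all genes called moved more. In WT LMPP against WT LSK FLT3- it was 6198, 3496 with quantile normalization, 2370 and 2449 without WT LSK FLT3- replicates 1 and 2, and 1214 at 2-fold or more. In E2A-KO LMPP against WT LSK FLT3- it was 6822, and 3617, 2944, 2989 and 1358 under the same settings in that order. In E2A-KO against WT LMPP it was 250, with 89 on only the 4 LMPP arrays, 93 to 164 without 1 LMPP array, 548 with a robust variance trend and 123 at 2-fold or more. The share of calls that were higher was 30.5% between the wild-type fractions, 47.4% with quantile normalization and 17.8% with median centring, where the median gene changed by -0.116. Against WT LSK FLT3- it was 29.3% in E2A-KO LMPP, 44% with quantile normalization and 14.6% with median centring.

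Nothing in the labels ties same-numbered samples together, and the differences between replicates 1 and 2 correlated between groups at -0.042 to 0.023 over genes. In a fit with a replicate block, the counts of platelet genes were 7, 1 and 6 and those of all genes 5914, 200 and 6535, in the order wild-type fractions, E2A-KO against WT LMPP, and E2A-KO LMPP against WT LSK FLT3-.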
